A study of Mus musculus with 4 samples.

Results

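The genes examined encode the receptors, adaptors, kinases and transcription factor that detect RNA and DNA in the cytosol: Cgas, Tmem173 (the symbol of STING in the annotation used), Ddx58 (RIG-I), Ifih1 (MDA5), Dhx58 (LGP2), Mavs, Tbk1, Ikbke, Irf3 and Eif2ak2 (PKR). These 10 genes were chosen by name, for their place in the pathway and with earlier results of these data known, from the 54532 genes listed in each library, and 10 of the 10 were matched and passed the filter on low counts, among 14908 genes tested. They were measured by RNA-Seq of polyadenylated RNA from whole kidney in wild-type animals (WT) and in Zbp1 knockouts (Zbp1-KO), with 2 libraries per genotype. Every animal, WT included, had been injected intraperitoneally with 500 µL of pristane when 8 weeks old, and the kidneys were collected after a further 8 months. All mice were on the C57BL/6J background, those of the lupus-like model were described as female, and the knockout is a constitutive CRISPR-Cas9 deletion from the second to the eighth exon of Zbp1. Kidneys of mice without pristane were not analysed here, so the values compare genotypes within pristane-induced disease and not disease with health. Whether a library came from 1 animal or from pooled animals was not stated, and p-values measure only the spread between these libraries.

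cGAS binds double-stranded DNA and makes the second messenger cGAMP, which activates STING at the endoplasmic reticulum. RIG-I and MDA5 bind foreign or unmodified double-stranded RNA, are modulated by LGP2, and signal through MAVS on the outer mitochondrial membrane. Both arms meet at the kinases TBK1 and IKKε (Ikbke), which phosphorylate IRF3 and so switch on type I interferon, while PKR answers double-stranded RNA by phosphorylating eIF2α and slowing translation. ZBP1, a sensor of Z-form nucleic acids, is described as a facilitator of the cGAS-STING pathway, and the comparison asked how the kidney transcriptome differs in its absence. In lupus, this machinery is known for responding to the body's own nucleic acids.

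Many of these sensors are interferon-induced themselves, through the interferon-stimulated response element (ISRE). RefSeq promoters (250 bases before to 50 bases after the start, GRCm38.p6) were found for 8 of the 10 genes, with no entry for Tmem173 and Dhx58. An ISRE core, searched on both strands as GAAA, any 2 bases and GAAA again, occurred in 3 of the 8, Ifih1, Eif2ak2 and Ddx58, and in 3.44% of all 32851 promoters. The short stretches that hold them are shown to place the inducible sensors beside their values, with the matched letters in capitals, 5′ to 3′ on the strand of the gene.
Ifih1 (chr2:62646209-62646228, minus strand, from 32 to 41 bases past the start): gaatcGAAACAGAAAccgat
Eif2ak2 (chr17:78882540-78882559, minus strand, from 18 to 27 bases past the start): gccggGAAAACGAAAcagaa
Ddx58 (chr4:40239809-40239828, minus strand, from 2 to 11 bases past the start, match on the opposite strand): ggcagTTTCGATTTCctatg
The 150 bases before the RefSeq start of Cgas and Ikbke are shown because these genes had the smallest p-values described below, and neither promoter held the ISRE letters. For Ikbke the GENCODE start, 131279606, lies within the stretch shown, so the annotations differ there. Capitals mark a κB motif, searched on both strands as GGGA, any 4 bases and CC, which was present in 2 of the 8 promoters (Cgas and Eif2ak2) and in 20.7% of all promoters. The interferon-gamma activated letters TTCNNNGAA were present in 1 of the 8 (Eif2ak2) and in 8.3% of all promoters.
Cgas (chr9:78443238-78443387, minus strand, match on the opposite strand): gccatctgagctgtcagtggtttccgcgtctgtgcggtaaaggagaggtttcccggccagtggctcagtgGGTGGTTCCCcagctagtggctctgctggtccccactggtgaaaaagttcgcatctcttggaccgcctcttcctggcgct
Ikbke (chr1:131279564-131279713, minus strand, no match): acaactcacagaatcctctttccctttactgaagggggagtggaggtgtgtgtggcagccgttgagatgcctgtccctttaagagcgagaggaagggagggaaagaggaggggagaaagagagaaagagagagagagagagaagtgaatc

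Total counts ranged from 9878776 to 12921925 per library, of which 4003417 to 5782924 lay outside the mitochondrial genome, and mitochondrially encoded genes took 49.5% to 61.5%. Levels are given as CPM, the share of a library in parts of 1000000, with library sizes scaled by the trimmed mean of M-values (TMM). Zbp1 itself was counted 94 and 125 times in WT kidney against 18 and 0 times in the knockout, so both knockout libraries were lower, as labelled, and the counts are per gene, which does not tell deleted exons from the others. Its log2 fold change, Zbp1-KO over WT, was −3.64 ± 0.89 (SE), which was not called by the quasi-likelihood test of edgeR (adjusted p = 0.999). The exact test of edgeR did call it (adjusted p = 0.0110; the alternatives gave 2.86e-05 to 1.00), so a missed call in the quasi-likelihood test does not show that a gene is unaltered. The 10 kidney tubule and glomerulus markers summed to 3641 and 4034 CPM in the WT libraries and to 3466 and 3425 CPM in the knockouts, lower in both, and none was at 0 in any library.

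None of the 10 sensing genes was called at an adjusted p under 0.05, against 2 of 14908 genes tested (0.0134%). At an unadjusted p under 0.05 in the edgeR quasi-likelihood test, Cgas and Ikbke were higher in Zbp1-KO (2 of 10, against 1.91% of all genes tested) and 0 were lower (1.97%), where 3.88% of all genes passed in either direction. Cgas passed the filter on low counts only through the knockout libraries, where it is high, so its place in these counts is no support, and 1 of the 2 is left without it. The genotypes did not overlap for 5 of the 10, with Cgas, Ikbke, Ifih1 and Mavs higher and Irf3 lower, against 32.3% of all genes tested (16% higher and 16.3% lower). Cgas is no support here either, which leaves Ikbke, Ifih1 and Mavs higher and Irf3 lower. The exact test, the likelihood ratio test, DESeq2 and limma-voom also called 0 of the 10 at an adjusted p under 0.05. The median log2 fold change of the 10 was 0.09, against −0.01 over all genes tested, with 7 values above 0, Cgas among them (49.4% of all genes tested), and 3 below. An absolute log2 fold change of at least 1 was reached by 1 of the 10 (8.4% of all genes tested). This was Cgas, which is again no support, and Ikbke lay just short of it at 0.99.

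**Figure D1:**
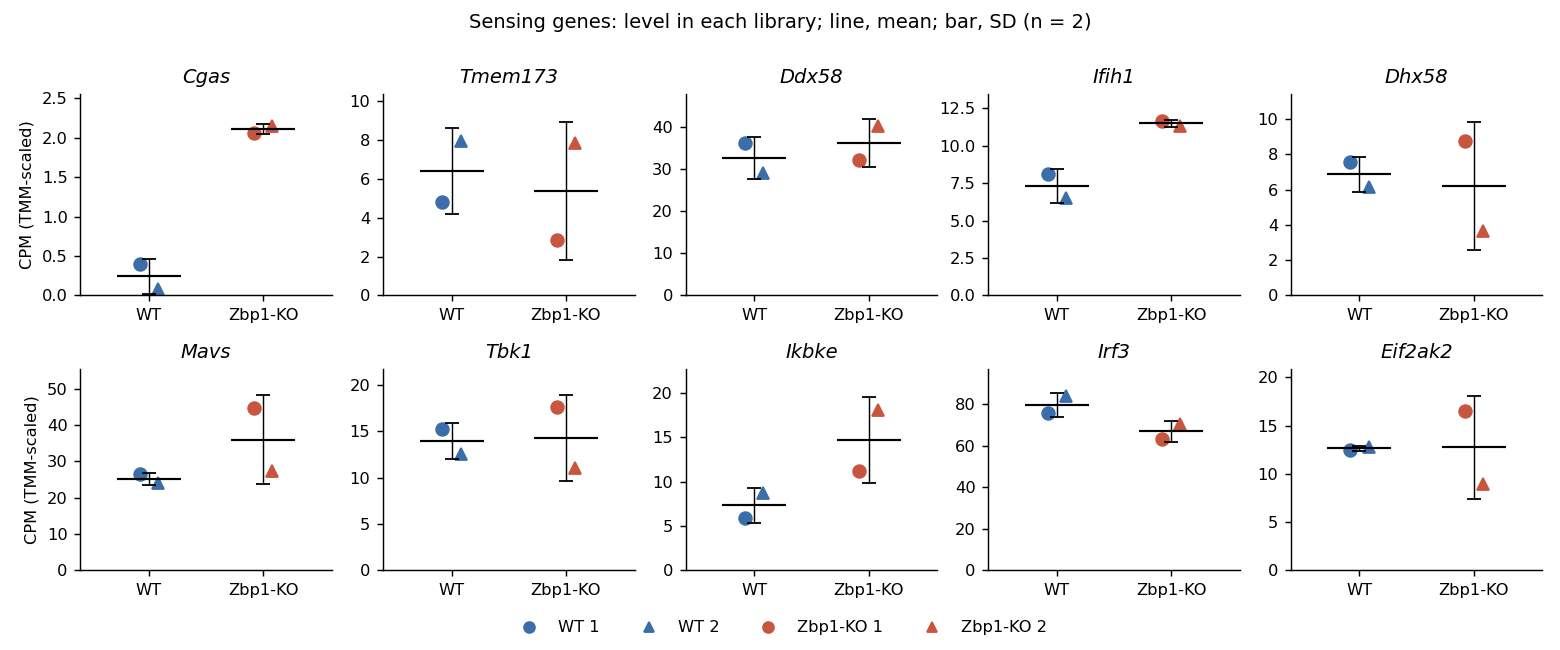
Level of each sensing gene in CPM (vertical axes from 0, scaled per gene) in the WT and Zbp1-KO libraries; circles and triangles are replicates 1 and 2, lines the means and bars the SD (n = 2 per genotype). Cgas, Ikbke, Ifih1 and Mavs were higher in both Zbp1-KO libraries and Irf3 was lower in both, while the other 5 genes overlapped between genotypes.

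Cgas (ENSMUSG00000032344, chromosome 9, 78430526 to 78443237, minus strand, GENCODE M21, GRCm38), the DNA receptor, showed the widest difference among the 10. It was counted 5 times and 1 time in WT kidney against 28 and 20 times in the knockout, with exact 95% Poisson intervals of 1.62 to 11.7, 0.0253 to 5.57, 18.6 to 40.5 and 12.2 to 30.9 counts, which cover counting error only. Both knockout libraries were therefore above both WT libraries, and the intervals of the genotypes did not overlap. In CPM the means were 0.244 ± 0.224 with Zbp1 and 2.11 ± 0.0635 without it (SD, n = 2 libraries each). This was a log2 fold change of 3.05 ± 1.33 (SE; unadjusted p = 0.0412, adjusted p = 0.999, edgeR; the alternatives gave adjusted p of 0.601 to 1.00). Pooled over each genotype, 6 WT counts stood against 48 Zbp1-KO counts, a ratio of 8.45 per effective library size with a 95% counting interval of 3.61 to 24.2. That interval also covers counting error only and leaves out the spread between libraries. Cgas entered the test only through its counts in Zbp1-KO, since both WT libraries were below the minimum of 10 counts, and a gene admitted in this way had to differ between the groups. With limma-voom its unadjusted p was 0.141, and without WT replicate 2, the library with 1 count, its log2 fold change was 2.35 and its unadjusted edgeR p 0.256.

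Tmem173 (ENSMUSG00000024349), which encodes STING, the receptor of the cGAMP made by cGAS, overlapped between genotypes. It measured 4.83 and 7.95 CPM in the WT libraries, and 2.88 and 7.86 CPM in the knockout libraries, so that replicates of each genotype differed by more than the genotypes. Its log2 fold change was −0.26 ± 0.56 (SE; unadjusted p = 0.645, edgeR), and it ran from −1.16 without Zbp1-KO replicate 2 to 0.29 without Zbp1-KO replicate 1. Per kilobase of exon, the level of Cgas relative to Tmem173 within a library was 0.0554 and 0.00714 in WT and 0.477 and 0.182 in Zbp1-KO. That ratio does not depend on the scaling between libraries, and Cgas was the lower of the pair in all 4.

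Among the RNA helicases, Ifih1 was higher in both knockout libraries, while Ddx58 and Dhx58 overlapped between genotypes. Ifih1 (ENSMUSG00000026896, chromosome 2, 62595798 to 62646255, minus strand), the receptor of long double-stranded RNA, measured 8.12 and 6.50 CPM in the WT libraries, and 11.7 and 11.3 CPM in the knockout libraries. The knockout libraries were higher and close to each other, with means of 7.31 ± 1.15 and 11.5 ± 0.24 CPM (SD, n = 2 each). The log2 fold change was 0.65 ± 0.35 (SE; unadjusted p = 0.0891, edgeR) and stayed between 0.49 and 0.81 with each library left out in turn. Ddx58 (ENSMUSG00000040296, chromosome 4, 40203773 to 40239828, minus strand), which binds short RNA ends, measured 36.0 and 29.0 CPM in the WT libraries, and 32.0 and 40.2 CPM in the knockout libraries, and the genotypes overlapped. Its log2 fold change of 0.15 ± 0.23 (SE; unadjusted p = 0.526, edgeR) was the smaller of the pair. Dhx58 (ENSMUSG00000017830, chromosome 11, 100694884 to 100704271, minus strand), a helicase of the same family without the signalling domain, measured 7.56 and 6.16 CPM in the WT libraries, and 8.77 and 3.66 CPM in the knockout libraries. The highest and the lowest of these were the knockout replicates, and the log2 fold change was −0.13 ± 0.49 (SE; unadjusted p = 0.799, edgeR).

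Within a library, Ifih1 stood at 0.195 and 0.194 of Ddx58 per kilobase of exon in WT and at 0.314 and 0.243 in Zbp1-KO. The knockout ratios were both higher than the WT ratios, which were nearly equal. Dhx58 stood at 2.32 and 2.36 of Ifih1 in WT and at 1.88 and 0.808 in Zbp1-KO, lower in both knockout libraries. These ratios were chosen after the values had been seen and were not tested. Of the 3 genes, Dhx58 shares 141 exon bases with the antisense gene Dhx58os, which had 0 to 20 counts, so part of its reads could belong to either strand's gene if counting ignored strand.

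Mavs (ENSMUSG00000037523, chromosome 2, 131234063 to 131248025, plus strand), the adaptor of both RNA receptors, measured 26.5 and 24.1 CPM in the WT libraries, and 44.7 and 27.4 CPM in the knockout libraries. Both knockout libraries were above both WT libraries, but replicate 2 by less than the knockout replicates differed from each other. Its log2 fold change was 0.51 ± 0.26 (SE; unadjusted p = 0.0705, edgeR). Library Zbp1-KO 1 carried most of it. Without that library the log2 fold change was 0.11 (unadjusted p = 0.705, edgeR), and without Zbp1-KO replicate 2 it was 0.81 (unadjusted p = 0.00445, adjusted p = 0.275, edgeR, the lowest of a range up to 1.00).

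Of the kinases that follow both arms, Ikbke was higher in both knockout libraries and Tbk1 overlapped between genotypes. Ikbke (ENSMUSG00000042349, chromosome 1, 131254343 to 131279606, minus strand), the inducible IKKε, was counted 74 and 102 times in WT kidney against 152 and 168 times in the knockout. These were 5.95 and 8.72 CPM against 11.2 and 18.1 CPM, with no overlap and means of 7.34 ± 1.96 and 14.7 ± 4.87 CPM (SD, n = 2 each). This was a log2 fold change of 0.99 ± 0.37 (SE; unadjusted p = 0.0203, adjusted p = 0.999, edgeR; the alternatives gave adjusted p of 0.362 to 1.00). It stayed between 0.60 and 1.30 with each library left out in turn, and the unadjusted edgeR p was 0.155 without Zbp1-KO replicate 2 and 0.135 without WT replicate 1. Tbk1 (ENSMUSG00000020115, chromosome 10, 121546455 to 121586787, minus strand), its constitutive relative, measured 15.3 and 12.6 CPM in the WT libraries, and 17.5 and 10.99 CPM in the knockout libraries. The knockout replicates enclosed the WT values, and the log2 fold change was 0.04 ± 0.32 (SE; unadjusted p = 0.900, edgeR). Per kilobase of exon, Ikbke stood at 0.169 and 0.301 of Tbk1 in WT and at 0.277 and 0.714 in Zbp1-KO, so this ratio overlapped between genotypes.

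Irf3 (ENSMUSG00000003184, chromosome 7, 44997648 to 45002848, plus strand), the transcription factor activated by these kinases, was the only member that was lower in both knockout libraries. It measured 75.5 and 83.6 CPM in the WT libraries, and 63.4 and 70.5 CPM in the knockout libraries, with means of 79.6 ± 5.75 and 66.9 ± 4.98 CPM (SD, n = 2 each). The log2 fold change was −0.25 ± 0.19 (SE; unadjusted p = 0.203, edgeR) and ran from −0.34 to −0.18 with each library left out in turn. It shares 88 exon bases with Bcl2l12 on the opposite strand, which had 19 to 66 counts against 654 to 978 for Irf3. Eif2ak2 (ENSMUSG00000024079, chromosome 17, 78852564 to 78882573, minus strand), the RNA-activated kinase outside the IRF3 route, measured 12.5 and 12.8 CPM in the WT libraries, and 16.5 and 8.94 CPM in the knockout libraries. The WT replicates were close and lay between the knockout replicates, and the log2 fold change was 0.02 ± 0.35 (SE; unadjusted p = 0.959, edgeR).

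**Figure D2:**
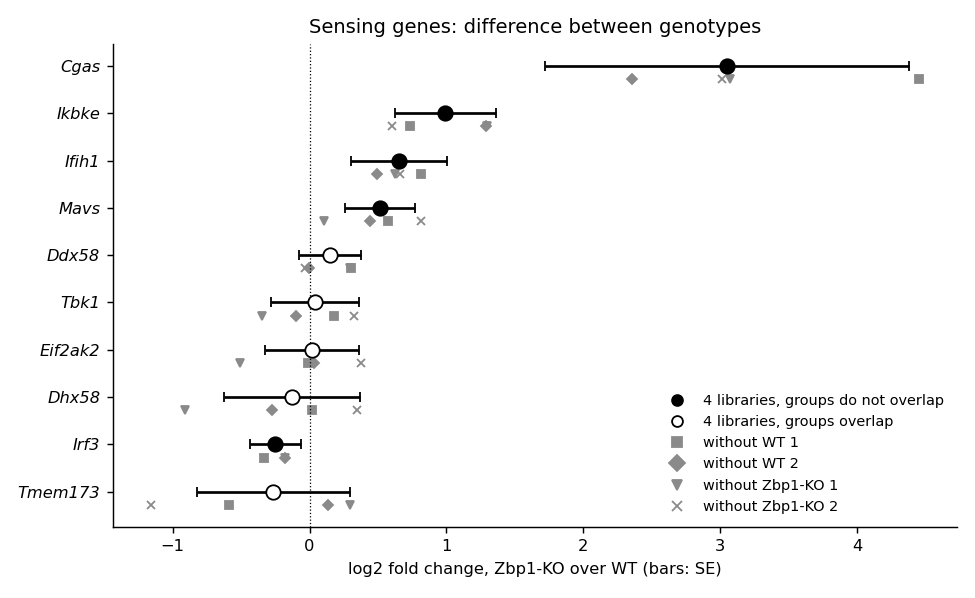
Log2 fold change of each sensing gene, Zbp1-KO over WT, with its SE (black; filled where the genotypes did not overlap), and the same value with each library left out (grey symbols). Cgas, Ikbke, Ifih1, Mavs and Irf3 kept their sign in all 4 of these fits, while Tmem173, Ddx58, Dhx58, Tbk1 and Eif2ak2 lay on both sides of 0.

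No one library was highest throughout. Of the 10, 5 were highest in Zbp1-KO 1, 3 in Zbp1-KO 2 and 2 in WT 2. The 10 genes summed to 193 and 192 CPM in the WT libraries and to 211 and 201 CPM in the knockouts. The sign of the log2 fold change of Tmem173, Ddx58, Dhx58, Tbk1 and Eif2ak2 differed depending on which library was left out. Without Zbp1-KO replicate 1 the median of the 10 was 0.20, without Zbp1-KO replicate 2 it was 0.36, without WT replicate 1 it was 0.24 and without WT replicate 2 it was 0.08. The number at an unadjusted edgeR p under 0.05 was 0 without WT replicate 1 and 1 without each of the other libraries.

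Levels were then compared between the genes per length, as counts per kilobase of exon, scaled to a sum of 1000000 over the genes outside the mitochondrial genome. Irf3 was the most abundant in all 4 libraries, at 95.1 to 136, followed by Mavs at 39.8 to 69.0 and Ddx58 at 23.0 to 27.7. These top 3 did not overlap with each other. Tbk1 ranged from 13.7 to 23.2, Eif2ak2 from 8.51 to 16.7, Tmem173 from 5.42 to 16.3 and Dhx58 from 5.45 to 13.8, and each of these overlapped with its neighbours in the order, Tbk1 also with Ddx58. Ikbke ranged from 3.53 to 9.77 and Ifih1 from 4.46 to 7.37, again with overlap. Cgas was the least abundant in every library, at 0.116 to 2.58. With the longest annotated transcript as the length, Irf3 and Cgas kept their places in all 4 libraries, and Mavs and Ddx58 exchanged places in WT 1 and Zbp1-KO 2.

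**Figure D3:**
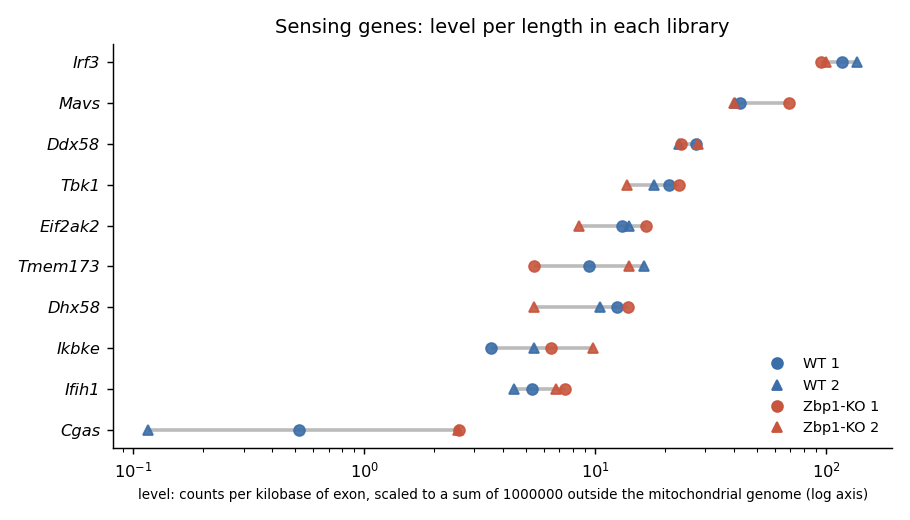
Level per length of each sensing gene (horizontal log axis, counts per kilobase of exon, scaled to a sum of 1000000 over the genes outside the mitochondrial genome) in each library, ordered by the mean of the log values. Irf3 is at the top at 95.1 to 136 and Cgas at the bottom at 0.116 to 2.58, with the WT libraries at the low end for Cgas.

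Genes that work with these sensors were described from 7 lists holding 163 genes, of which 151 were tested. None was called at an adjusted p under 0.05 in the edgeR quasi-likelihood test. At an unadjusted p under 0.05, 12 were higher and 5 lower in Zbp1-KO, against 1.91% and 1.97% of all genes tested (3.88% in either direction). The same shares stand beside the counts of each list below. When every gene with at least 1 count was tested, 1 pathway gene was called, the interferon-induced GTPase Gbp2, and it was also called without Zbp1-KO replicate 2.

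Among partners of DNA sensing, 19 of 25 tested genes had a log2 fold change above 0 (49.4% of all genes tested) and the median was 0.16. At an unadjusted p under 0.05, 1 was higher and 0 lower. Ifi203, a nuclear protein of the interferon-inducible p200 family, measured 31.2 ± 6.87 CPM with Zbp1 and 46.6 ± 3.17 CPM without it (SD, n = 2 libraries each; unadjusted p = 0.0245, edgeR). Its relative Mndal and the DNA end-binding protein Xrcc6 followed, with log2 fold changes of 0.43 and 0.58 (unadjusted p = 0.0680 and 0.0800, edgeR). Both knockout libraries were higher than both WT libraries for 7 of the 25 and lower for 1, where 16% of all genes tested were higher and 16.3% lower without overlap.

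Genes that handle cGAMP and STING were mixed, with a median of 0.02 over 26 tested. At an unadjusted p under 0.05 (edgeR), 3 were higher and 1 was lower (1.91% and 1.97% of all genes tested). Without overlap, 6 were higher and 5 lower (16% and 16.3% of all genes tested). Rnf5, a ubiquitin ligase that promotes STING degradation, measured 15.3 ± 5.94 CPM with Zbp1 and 6.84 ± 1.75 CPM without it (SD, n = 2 libraries each; log2 fold change −1.17, unadjusted p = 0.00995, edgeR). Usp18, an interferon-induced protease of ISG15, had a log2 fold change of 1.04 and Trim56, a ubiquitin ligase acting on the pathway, 0.63 (unadjusted p = 0.0289 and 0.0386, edgeR). The remaining gene was Lrrc8a, a subunit of volume-regulated anion channels that carry cGAMP, at 0.85 (unadjusted p = 0.0446, edgeR; named after its value was seen). The cGAMP hydrolase Enpp1 and the STING inhibitor Nlrc3 had log2 fold changes of −0.21 and −0.16 (unadjusted p = 0.448 and 0.846, edgeR).

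Cofactors of the RNA sensors had a median of 0.135 over 16 tested, with 9 above 0 and 7 below. Both knockout libraries were higher than both WT libraries for 5 of the 16 and lower for 1 (16% and 16.3% of all genes tested). The single gene at an unadjusted p under 0.05 was Trim65, a ubiquitin ligase of MDA5, at 4.98 ± 2.15 CPM with Zbp1 and 10.3 ± 2.79 CPM without it (SD, n = 2 libraries each; log2 fold change 1.05, unadjusted p = 0.0392, edgeR). Trim25, the ligase known for RIG-I, had a log2 fold change of 0.21, Ywhah 0.38, Ddx60 0.92 and the PKR activator Prkra −0.21 (unadjusted p of 0.0736 or more, edgeR). The list labelled as inhibitors of the RNA sensors and of MAVS had a median of −0.10 over 20 tested. Of these, 14 were below 0, where 49.4% of all genes tested were above 0. Not every gene in it is an inhibitor (Ppp1ca and Ppp1cc are not), so its values do not describe inhibitors alone. The groups did not overlap for 6 of the 20, each lower in Zbp1-KO, as were 16.3% of all genes tested. The phosphatase subunit Ppp1ca, which with Ppp1cc is known to act on MDA5 and RIG-I, had a log2 fold change of −0.45 (unadjusted p = 0.0403, edgeR). Ppp1cc was at −0.40 and the autophagy gene Atg5 at −0.60 (unadjusted p = 0.0790 and 0.0751, edgeR), and the RNA editor Adar, also counted in this list, was at 0.04.

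The TRAF, TBK1 and NF-κB relay had a median of 0.04 over 29 tested. At an unadjusted p under 0.05 (edgeR), 4 were higher and 1 lower (1.91% and 1.97% of all genes tested). Without overlap, 5 were higher and 5 lower (16% and 16.3% of all genes tested). Irf1, an interferon-induced transcription factor, measured 24.9 ± 7.29 CPM with Zbp1 and 43.8 ± 11.5 CPM without it (SD, n = 2 libraries each; log2 fold change 0.82, unadjusted p = 0.00977, edgeR). The NF-κB kinase Ikbkb, related to Ikbke and Tbk1, measured 46.7 ± 4.88 CPM and 70.2 ± 1.41 CPM (SD, n = 2 each; log2 fold change 0.59, unadjusted p = 0.0102, edgeR). Nfkb1, an NF-κB subunit, had a log2 fold change of 0.55 (unadjusted p = 0.0271, edgeR), and Irf7, the interferon-inducible relative of Irf3, −0.05 (unadjusted p = 0.805, edgeR). The TRAF adaptors went both ways, with log2 fold changes of 0.66 for Traf3 and −0.86 for Traf5 (unadjusted p = 0.0485 and 0.0275, edgeR; named after their values were seen).

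Of 26 target genes of IRF3 and NF-κB, 16 were tested. The type I and III interferon genes listed (Ifnb1, 5 Ifna genes, Ifnl2 and Ifnl3) had 0 counts in all 4 libraries. There 3 counts, the limit a count of 0 allows, equal 0.221 to 0.323 CPM, so transcripts of these genes were not detectable at this depth. Other interferon genes were not in the list. The 16 targets tested had a median of 0.38, with 13 above 0 (49.4% of all genes tested). At an unadjusted p under 0.05 (edgeR), 3 were higher and 1 lower (1.91% and 1.97% of all genes tested). Without overlap, 4 were higher and 2 lower (16% and 16.3% of all genes tested). The antiviral gene Rsad2 measured 24.0 and 21.2 CPM in the WT libraries, and 40.3 and 37.5 CPM in the knockout libraries (log2 fold change 0.78, unadjusted p = 0.00381, edgeR). Its groups did not overlap, and those of the interferon-induced GTPase Gbp5 (log2 fold change 1.34, unadjusted p = 0.00476, edgeR) and of the chemokine Ccl5 (1.46, unadjusted p = 0.0518, edgeR) did not either. Gbp2, with a log2 fold change of 1.16 (unadjusted p = 0.0143, edgeR), measured 73.7 CPM in Zbp1-KO 1 and 29.2 CPM in Zbp1-KO 2, which lay within the WT range. The chemokine Cxcl10 was at 32.3 and 4.42 CPM in the same libraries, and Isg15 had a log2 fold change of −0.52 (unadjusted p = 0.129, edgeR). The lower gene at an unadjusted p under 0.05 was Oasl1, an interferon-induced relative of the oligoadenylate synthetases, at −1.42 (unadjusted p = 0.0288, edgeR; named after its value was seen). Oasl1 and Isg15 were the genes that were lower in both knockout libraries without overlap. The median of the 16 depended on 1 library and was −0.39 without Zbp1-KO replicate 1 and 0.75 without Zbp1-KO replicate 2.

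The PKR and integrated stress response genes had a median of −0.07 over 22 tested, with 8 above 0 and 14 below. Both knockout libraries were higher than both WT libraries for 2 of the 22 and lower for 5 (16% and 16.3% of all genes tested). The single gene at an unadjusted p under 0.05 was Ppp1r15a, the stress-induced subunit that reverses eIF2α phosphorylation, at 25.1 ± 6.41 CPM with Zbp1 and 13.9 ± 0.465 CPM without it (SD, n = 2 libraries each; log2 fold change −0.85, unadjusted p = 0.00905, edgeR). Atf4 and Ddit3, the transcription factors downstream of eIF2α, were at −0.17 and −0.07 (unadjusted p = 0.386 and 0.768, edgeR). Their targets Trib3 and Asns were at 1.94 and 0.97 (unadjusted p = 0.0807 and 0.109, edgeR), with Asns at 12.9 CPM in Zbp1-KO 1 and 4.20 CPM in Zbp1-KO 2. Trib3 was counted 17 and 3 times in WT against 42 and 30 times in Zbp1-KO, so its value rests on few counts.

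Marker genes of other cells moved with the genotypes in part, and in whole kidney more cells of a type and more RNA per cell cannot be told apart. All 11 tested T cell markers of 13 had a log2 fold change above 0 (49.4% of all genes tested). Without overlap, 4 were higher (16%), and 1, Cd2, had an unadjusted p under 0.05 (1.91%, edgeR). Cd2 (6 and 2 counts in WT, 39 and 17 in Zbp1-KO) passed the filter only through Zbp1-KO, so it is no support in these counts. The 13 summed to 19.9 and 15.99 CPM in the WT libraries and to 34.7 and 33.8 CPM in the knockouts. The most counted of these were Lck and Cd3g, and none of the 13 was at 0 in any library. The 8 adipocyte markers summed to 102 and 136 CPM in the WT libraries and to 251 and 220 CPM in the knockouts, led by Fabp4 and by Cfd, which was called (log2 fold change 2.20, adjusted p = 0.00889, edgeR); Lep was at 0 in all libraries. The 14 macrophage and dendritic cell markers summed to 402 and 263 CPM in the WT libraries and to 383 and 389 CPM in the knockouts, with Csf1r and Lyz2 the most counted. Of the 12 tested, 10 had a log2 fold change above 0, and 5 were higher in both Zbp1-KO libraries than in both WT libraries, against 49.4% and 16% of all genes tested. Sums of B and plasma cell markers ran from 233 to 822 CPM, led by Igkc and Jchain. Those of neutrophils ran from 5.13 to 25.1 CPM (led by S100a9 and S100a8). Those of endothelium ran from 190 to 231 CPM (led by Emcn and Pecam1). These sums overlapped between genotypes. Of 7 B and plasma cell markers tested, 5 had a log2 fold change below 0 and 2 above (49.4% of all genes tested). Both knockout libraries were higher than both WT libraries for 1 and lower for 2 (16% and 16.3%). At an unadjusted p under 0.05, 1 was lower (1.97%, edgeR). The 3 neutrophil markers tested were below 0, and of 6 endothelial markers 3 were above and 3 below. Ly6g was at 0 in all libraries, Cd79a and Ms4a1 were at 0 in both Zbp1-KO libraries, and Ms4a1, Plin1, Flt3, Xcr1, Retnlg and Cxcr2 were each at 0 in at least 1 library. The 10 tissue handling and stress genes, led by Hspa1b and Dusp1, were all below 0, where 49.4% of all genes tested were above 0. Their median log2 fold change was −1.14. At an unadjusted p under 0.05 (edgeR), 8 of the 10 were lower, against 1.97% of all genes tested. The groups did not overlap for 9, each lower in Zbp1-KO (16.3%). Their sums were 501 and 289 CPM in the WT libraries, and 157 and 129 CPM in the knockout libraries. The T cell and adipocyte sums were higher, and the handling and kidney sums lower, in both Zbp1-KO libraries, where Cgas, Ikbke, Ifih1 and Mavs were higher and Irf3 was lower, and their part in those differences was not tested.

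**Figure D4:**
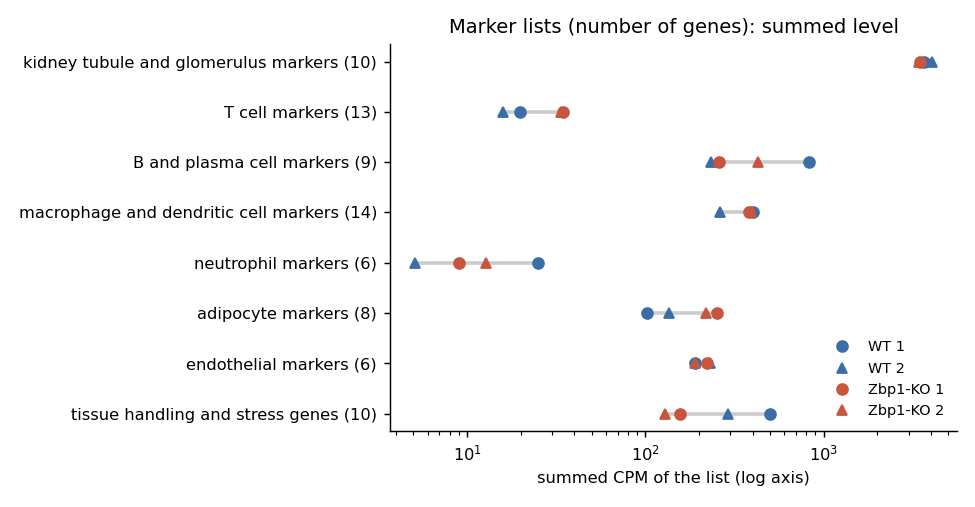
Summed CPM (log axis) of 7 cell type marker lists and of the tissue handling and stress genes in each library, with the number of genes in brackets. T cell and adipocyte sums are higher in both Zbp1-KO libraries than in both WT libraries, the handling and kidney sums are lower, and the sums of the other 4 lists overlap.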

How the data were processed

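RNA from 4 kidney samples, 2 WT and 2 Zbp1-KO, was grouped by the sample titles. The authors enriched polyadenylated RNA, trimmed read pairs with Trimmomatic, aligned them with HISAT2 to mm10 and counted uniquely mapped pairs per Ensembl gene with featureCounts, and the deposited values are whole-number counts, not normalized. Versions, annotation release and strand setting are not given in the sources used here. Of 54532 genes, 54495 matched GENCODE M21 (GRCm38), from which symbols, gene positions and exon lengths were taken.

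A two-sided quasi-likelihood F test of edgeR (version 4.0.16, run under R 4.3.3) was applied after filterByExpr (minimum count 10, total 15) and TMM, with genotype as the only term, and Benjamini-Hochberg adjustment over 14908 genes. The SE of a log2 fold change is its size over the root of the F statistic. With groups of 2, an exact permutation test cannot give a p below 0.333 and was not used. Alternatives used other scalings, filters, DESeq2 1.42.0, limma 3.58.1, a replicate block and each library left out. The members and lists were chosen with earlier results of these data known. Named in each pathway list were the 3 genes with the smallest p, preset genes (such as Irf7 and Enpp1), and called genes. Pyhin1, Mnda and Trim4, listed by hand, matched no gene in the files.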

Additional observations from a re-analysis of the deposited data

How the results depend on the processing

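The sensing genes had 0 calls in each scaling, filter, test, block and left-out library tried at an adjusted p under 0.05, and 2 at an unadjusted p under 0.05. That count of 2 was 3 with all genes of at least 1 count, where Mavs joined Cgas and Ikbke, 1 with limma-voom, 1 with the replicate block and 0 to 1 with 1 library left out. The number not overlapping was 5, Cgas among them, and 5 to 9 with 1 library left out, where 3 values separate more easily. The median of 0.0945 ran from 0.0838 to 0.3617 with 1 library left out. The pathway genes had 17 at an unadjusted p under 0.05, 1 call (Gbp2) with all genes of at least 1 count, and 0 to 1 with 1 library left out. Over all genes the 2 calls became 578 at an unadjusted p under 0.05, 4 without mitochondrial genes, 41 with all genes of at least 1 count, 14 by edgeR's exact test, 26 by its likelihood ratio test, 9 with DESeq2, 7 with limma-voom, 11 with the replicate block and 0 to 37 with 1 library left out. Zbp1 was called with all genes of at least 1 count (log2 fold change −3.65), by the exact test (−3.67) and by the likelihood ratio test (−3.67), and ran from −4.83, a bound with the count of 0 set at 3, to −2.78 with 1 library left out, and was called without Zbp1-KO replicate 1 and without Zbp1-KO replicate 2. Apart from the filters, which alter the genes tested, and the left-out libraries, the cause was not tested.

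Sign changes were seen in uncalled genes. With the replicate block Eif2ak2 was at −0.043. With 1 library left out, Tmem173 ran from −1.16 to 0.29, Ddx58 from −0.031 to 0.31, Dhx58 from −0.91 to 0.35, Tbk1 from −0.35 to 0.32 and Eif2ak2 from −0.51 to 0.38. Same-numbered libraries had a correlation of deviations of 0.00399 over the genes tested, so no pairing by number was seen, and the block changed no call among the sensing genes. When 1 library remains in a genotype, it is assumed to vary like the other group. Cgas, with 6 counts in WT, is limited by depth.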
